A study of Mus musculus with 24 samples.

Results

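The genes described here are 10 genes of the elastic fibre and its microfibrils, namely Eln, Fbn1, Fbn2, Fbln1, Fbln2, Fbln5, Efemp1, Efemp2, Mfap4 and Mfap5, chosen by name from the 39017 genes counted in NIH 3T3 cells. All 10 had a row in every count table, and 9 of them passed the limit of a mean of 5 counts over the 24 libraries, above which 14361 genes in all were tested. NIH 3T3 is an immortalized fibroblast line from mouse embryos. All cells carried a pBabeNeo retroviral vector and were kept as pooled stable lines selected with G418, so that a library is the RNA of a mixed population and not of 1 clone. There were 8 groups of 3 libraries. EV held the vector alone, TAZ4SA and YAP5SA were hyperactive forms of the co-activators TAZ and YAP in which serines targeted by the LATS kinases are replaced by alanines, TAZ-CAMTA1 and YAP-TFE3 were the fusion proteins of epithelioid hemangioendothelioma, a vascular sarcoma, and TFE3 was the full-length transcription factor. By the labels these 6 groups were collected once confluent for 48 h. The CAMTA1 group, which expressed full-length CAMTA1, was collected below confluence and was therefore compared with EVsub, an empty vector group labelled sub-confluent. The labels name CAMTA1 alone as the exception, whereas the methods of the study word it as lines that contain CAMTA1, which could also mean TAZ-CAMTA1. On that reading, the fusion protein and confluence cannot be told apart in TAZ-CAMTA1 against EV or against another confluent group. Groups are named below by these labels, and the question was how the fusion proteins change expression relative to the vector and to the full-length proteins.

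Elastic fibres give skin, lung and large vessels their recoil. They consist of a core of cross-linked elastin laid down on a scaffold of fibrillin microfibrils, and the fibulins link the core, the microfibrils and the cell surface. Microfibrils also hold latent TGF-beta in the matrix through the latent TGF-beta binding proteins. Fibroblasts and smooth muscle cells are the usual sources of these proteins, and in the adult elastin is made at low rates.

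Against confluent EV, the elastin gene Eln, the fibrillin gene Fbn1 and the short fibulin gene Efemp1 rose with TAZ-CAMTA1, with YAP-TFE3 and with TAZ4SA. Fbln5, a short fibulin that binds elastin and integrins, rose with both fusion proteins and fell with TAZ4SA and with TFE3. Efemp1 and Fbln5 were also called higher with YAP5SA and in EVsub. Fbln1, a long fibulin, reached its highest level with TAZ-CAMTA1. Mfap5, a microfibril glycoprotein, fell with TAZ4SA, and Mfap4, a microfibril-associated protein of the fibrinogen family, fell with YAP5SA and with EVsub. Fibulin 2 (Fbln2) fell with TAZ4SA and with YAP5SA.

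A gene was called where its Benjamini-Hochberg adjusted p in the quasi-likelihood test of edgeR was under 0.05. TAZ-CAMTA1 against EV had 5 of the 9 tested genes called, all higher, where 21.5% of all tested genes were called and 12.5% were called higher. YAP-TFE3 against EV had 4 called, all higher, beside 15.3% of all genes called and 10.6% called higher. TAZ4SA against EV had 8 called, 4 higher and 4 lower, beside 57.5% of all genes, 31.1% higher and 26.4% lower. For YAP5SA against EV the count was 5, 2 higher and 3 lower, beside 71.2% of all genes (36.3% higher and 34.9% lower), so that the share among these genes was not above that of the transcriptome. TFE3 against EV had 1 called, lower, beside 3.38% called and 1.02% called lower. CAMTA1 against EVsub had 0 called, beside 2.18% of all genes. DESeq2 also called 0 of the 9, where it called 636 of all 14361 genes. At an unadjusted p under 0.05 there were 3 in edgeR, and the share of all genes at that limit is not given here. EVsub against EV, which differ in confluence and carry the same vector, had 4 called, 2 higher and 2 lower, beside 22.1% (12.5% higher and 9.59% lower).

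The median log2 fold change of the 9 genes was 0.74 with TAZ-CAMTA1, 0.50 with YAP-TFE3, 0.39 with TAZ4SA and -0.34 with TFE3, where the median of all tested genes was within 0.05 of 0 in each of these. With YAP5SA it was -0.23, or -0.20 with Eln set at its bound, and all tested genes had a median of 0.014. CAMTA1 against EVsub, where no member was called, had a median of -0.52, and EVsub against EV one of -0.12. All tested genes had medians of -0.026 and 0.019 in these 2 comparisons. The comparisons with EV share the same 3 EV libraries, so their values are not independent of each other. As the samples are bulk RNA, fewer cells that express a gene and less of its RNA per cell cannot be told apart.

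**Figure D1:**
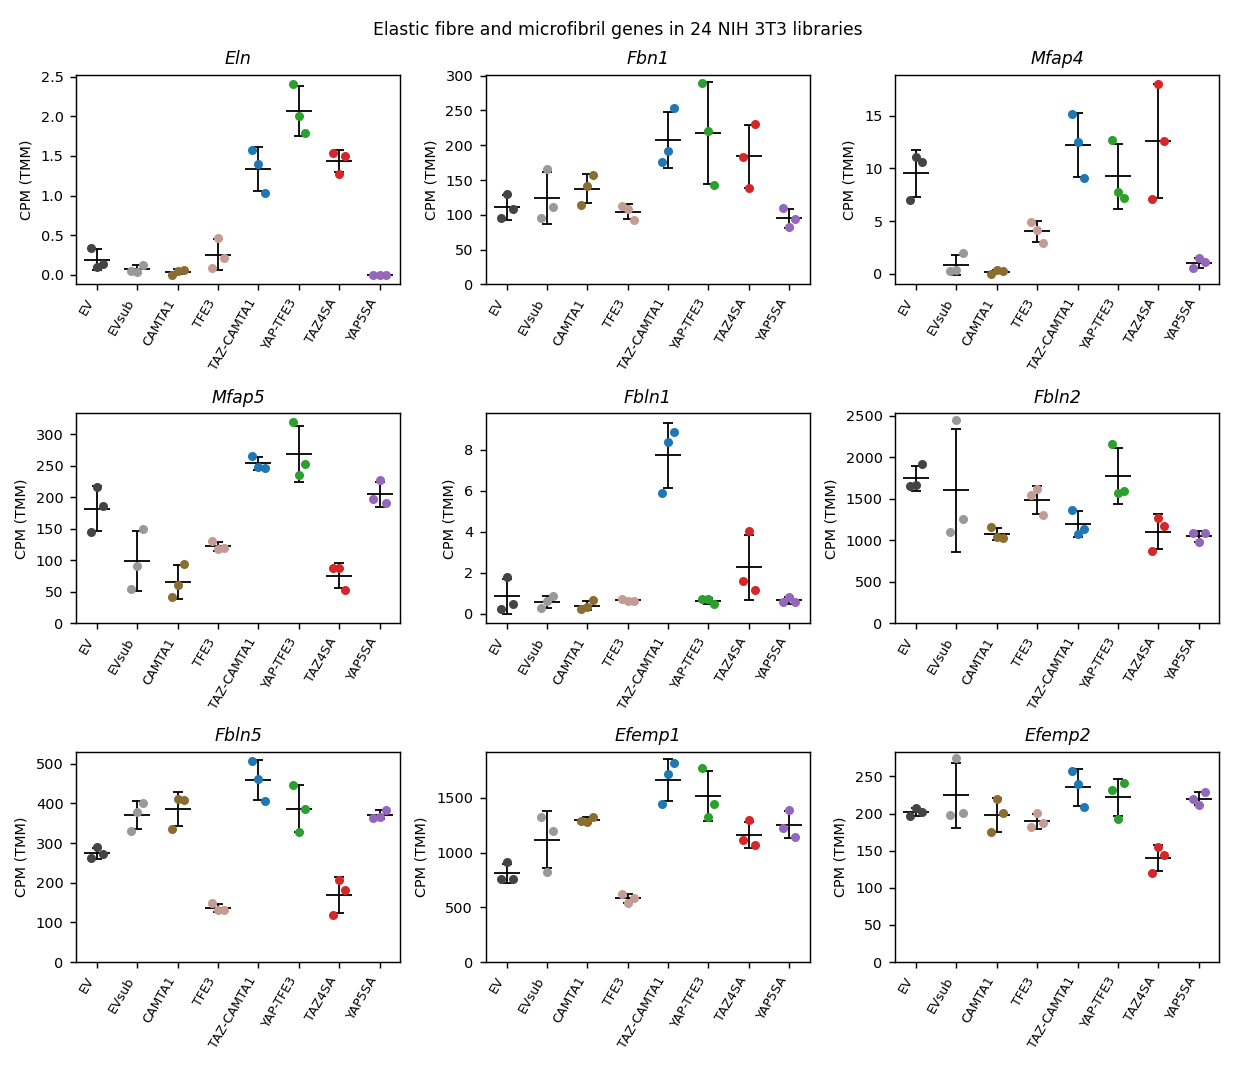
CPM (read counts relative to the TMM-scaled library size) of the 9 tested genes in the 24 libraries, on linear axes that start at or just below 0; each point is 1 library, and the bar and whiskers are the mean ± SD of 3 libraries. The 3 TAZ-CAMTA1 libraries stand above all others for Fbln1, and Eln is high in TAZ-CAMTA1, YAP-TFE3 and TAZ4SA and at 0 in YAP5SA.

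The libraries held between 16471181 and 30132586 counts, the median being 22298975. All 9 fibroblast markers (Col1a1, Vim, Thy1 and the like) were above the floor of 3 counts in each group, and their summed level was 35793 to 39372 CPM in EV, 24456 to 37312 in EVsub, 20416 to 28588 in CAMTA1, 30095 to 34044 in TFE3, 38462 to 44186 in TAZ-CAMTA1, 41179 to 54095 in YAP-TFE3, 20662 to 26274 in TAZ4SA and 28511 to 33428 in YAP5SA. Libraries of a group correlated at 0.968 or more on the log2 CPM scale, the lowest value being that of TAZ4SA replicates 2 and 3, and replicates of each group differed by more than counting noise. Camta1 was 9.23 to 11.2 CPM in the libraries labelled CAMTA1 and 3.95 to 5.6 in EVsub, and Wwtr1, the TAZ gene, was 152 to 171 CPM in TAZ4SA and 139 to 158 in TAZ-CAMTA1 against 129.6 to 137 in EV (adjusted p = 0.0113 and 0.19). The other introduced genes were not called higher. Tfe3 was 68.1 to 74.4 CPM in the libraries labelled TFE3 and 75.7 to 83.6 in YAP-TFE3 against 84.6 to 93.2 in EV, Camta1 was 4.35 to 5.02 in TAZ-CAMTA1 against 4.82 to 4.87, and Yap1 was 156 to 171 in YAP-TFE3 against 169.9 to 193 in EV. In the libraries labelled YAP5SA Yap1 was 91.6 to 111 CPM and was called lower than in EV (log2 fold change -0.86, adjusted p = 8.13e-09). Whether reads of the introduced sequences would be counted in these mouse genes is not given in the sources used here. The epithelial marker Epcam and the macrophage marker Adgre1 were at the floor in all groups, and the 5 endothelial markers summed to at most 12.4 CPM. The summed level of 5 macrophage markers was 3.44 to 5.0 CPM in EV, at most 6.94 in EVsub, CAMTA1 and TFE3, 23.0 to 26.1 in TAZ-CAMTA1, 118 to 244 in YAP-TFE3, 16.4 to 65.4 in TAZ4SA and 83.1 to 132 in YAP5SA. By group mean, Lyz2 made up most of it in TAZ-CAMTA1 (21.6 CPM) and YAP-TFE3 (160), against 0.39 in EV. Cd68 was 2.05 and 3.08 there against 3.18 in EV, and Csf1r 0.398 and 1.42 against 0.636. In TAZ4SA and YAP5SA, Cd68 (40.6 and 66.9) and Csf1r (5.41 and 40.0) made up most of it, with Lyz2 at 0.939 and 0.490. The 6 smooth muscle markers summed to 288 to 448 CPM in EV, 725 to 1366 in EVsub, 1093 to 1341 in CAMTA1, 466 to 506 in TFE3, 596 to 757 in TAZ-CAMTA1, 1199 to 2002 in YAP-TFE3, 300.0 to 401 in TAZ4SA and 429 to 449 in YAP5SA. Acta2 was the highest of the 6 by group mean except in YAP5SA, where Tagln was at 168 and Acta2 at 166 CPM. The part of these markers in the results below was not tested.

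In confluent EV cells the transcript levels of the 10 genes spanned several orders of magnitude. Per kilobase of exon, Efemp1 was highest at 397 ± 42.8 CPM per kb (SD, n = 3), followed by Fbln2 at 274 ± 24.2. Efemp2 (53.4 ± 1.49), Mfap5 (50.7 ± 9.99) and Fbln5 (39.7 ± 1.97) formed a middle group, in which the libraries of Efemp2 and Mfap5 overlapped. Fbn1 stood at 9.16 ± 1.48 and Mfap4 at 4.96 ± 1.17 CPM per kb. Fbln1 was at 0.195 ± 0.193 and Eln at 0.0233 ± 0.0161, and Fbn2, the fibrillin of embryonic microfibrils, had 0 to 4 counts in any library of the series and was not tested. Elastin, the core of the fibre, thus had the lowest level of the tested genes in these cells. Fbln2 and Efemp1 together made up most of the counts of the 10 genes, Fbln2 holding 48.5% to 55.6% and Efemp1 21.8% to 26.5% of them in the EV libraries. In TAZ-CAMTA1 Efemp1 held the larger share, with 27.1% to 33.9% for Fbln2 and 35.7% to 44.4% for Efemp1.

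**Figure D2:**
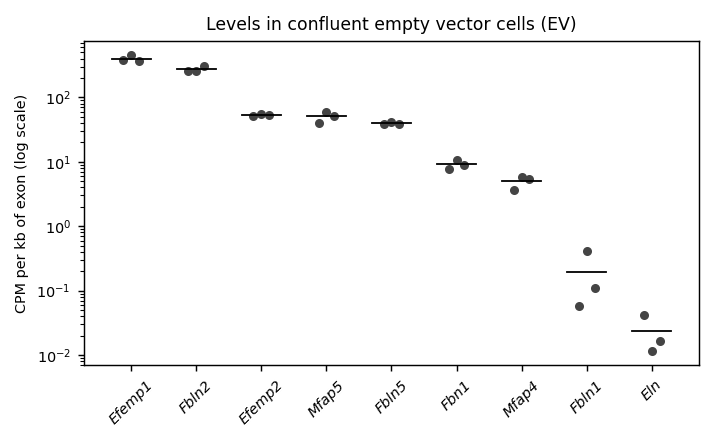
Level of the 9 tested genes in the 3 confluent empty vector libraries, as CPM per kilobase of exon on a logarithmic axis; points are libraries and lines are means. The genes run from 397 CPM per kb for Efemp1 down to 0.0233 for Eln.

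Eln (ENSMUSG00000029675, chr5:134702593-134747323 on mm10, minus strand) encodes tropoelastin, the soluble monomer of the elastic core. EV libraries 1 to 3 held 0.338, 0.0955 and 0.133 CPM, EVsub 0.0455, 0.0356 and 0.127, CAMTA1 0, 0.0476 and 0.0618 and TFE3 0.0894, 0.464 and 0.209. The TAZ-CAMTA1 libraries held 1.58, 1.40 and 1.04 CPM and the YAP-TFE3 libraries 2.41, 2.01 and 1.78. TAZ4SA had 1.54, 1.27 and 1.50 CPM, while no read of Eln was counted in any YAP5SA library, a group where a floor of 3 counts amounts to 0.164 CPM. Every library of TAZ-CAMTA1, YAP-TFE3 and TAZ4SA was above every library of the other 5 groups. TAZ-CAMTA1 and TAZ4SA overlapped, and YAP-TFE3 lay above both.

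Eln rose 6.78-fold with TAZ-CAMTA1 (log2 fold change 2.76 ± 0.46, adjusted p = 0.000175), 10.4-fold with YAP-TFE3 (log2 fold change 3.38 ± 0.44, adjusted p = 1.73e-05) and 7.34-fold with TAZ4SA (log2 fold change 2.87 ± 0.46, adjusted p = 2.67e-05), where ± is the standard error. Its EV level rested on 2 to 8 counts per library, and without EV replicate 1 the 3 log2 fold changes were 3.48, 4.10 and 3.59. With YAP5SA it was called lower (adjusted p = 0.00178), and against the floor the level was at least 1.15-fold lower than in EV. That bound rests on EV replicate 1, as EV replicates 2 and 3 lie below the YAP5SA floor, and without it no fold can be given, although the fit still called the gene (adjusted p = 0.0118). With TFE3 the log2 fold change was 0.39 (95% interval -0.81 to 1.60), which did not pass.

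Fbn1 (ENSMUSG00000027204, chr2:125300594-125507993, minus strand) encodes fibrillin 1, the backbone of adult microfibrils and the protein altered in Marfan syndrome. The EV libraries held 94.9, 130.4 and 108 CPM, those of EVsub 95.3, 166 and 111, of CAMTA1 115, 141 and 157 and of TFE3 113, 108 and 92.7. With TAZ-CAMTA1 the values were 176, 192 and 253 CPM and with YAP-TFE3 289.9, 220.1 and 143. TAZ4SA libraries held 183, 139 and 230.2 CPM and YAP5SA libraries 109, 82.5 and 93.4. The 9 libraries of TAZ-CAMTA1, YAP-TFE3 and TAZ4SA were above all EV libraries, and the YAP5SA libraries overlapped EV.

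Fbn1 rose by 0.90 ± 0.23 on the log2 scale with TAZ-CAMTA1 (adjusted p = 0.00737), by 0.97 ± 0.23 with YAP-TFE3 (adjusted p = 0.00546) and by 0.73 ± 0.23 with TAZ4SA (adjusted p = 0.0103). Each of these calls rested on single libraries. It was lost without TAZ-CAMTA1 replicate 3 (0.73, adjusted p = 0.0555), without YAP-TFE3 replicate 1 (0.68, adjusted p = 0.0891), and, for TAZ4SA, without EV replicate 1 (0.63, adjusted p = 0.0512) or TAZ4SA replicate 3 (0.53, adjusted p = 0.0629), and also with library totals in place of TMM (0.58, adjusted p = 0.0516). With YAP5SA Fbn1 had a log2 fold change of -0.23 (95% interval -0.72 to 0.27), and with library totals in place of TMM this was -0.59 and passed (adjusted p = 0.0371). An exon of Gm9913 on the opposite strand covers 20.14% of Fbn1 exon sequence, but Gm9913 itself had at most 9 counts in any library.

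Mfap5 (ENSMUSG00000030116, chr6:122505845-122529290, plus strand), also known as MAGP-2, is a small glycoprotein that binds fibrillins. The EV libraries held 144, 216 and 186 CPM, EVsub 54.3, 91.5 and 149, CAMTA1 42.0, 60.3 and 94.3 and TFE3 131, 118 and 119. The fusion proteins gave 266, 248 and 247 CPM with TAZ-CAMTA1 and 319, 235 and 253 with YAP-TFE3. TAZ4SA libraries held 86.8, 87.2 and 52.8 CPM and YAP5SA libraries 197, 227 and 190.1. All libraries of both fusion proteins lay above EV and all TAZ4SA libraries below it.

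The fall with TAZ4SA passed (log2 fold change -1.27 ± 0.28, adjusted p = 0.000564). The higher levels with TAZ-CAMTA1 (log2 fold change 0.48, 95% interval -0.10 to 1.06, adjusted p = 0.228) and YAP-TFE3 (0.56, interval -0.02 to 1.15, adjusted p = 0.19) did not pass. Mfap5 was lower in EVsub than in EV (log2 fold change -0.89 ± 0.28, adjusted p = 0.0247) although the libraries overlapped, and this call was lost without EV replicate 2, EV replicate 3, EVsub replicate 1 or EVsub replicate 2, with adjusted p from 0.0666 to 0.138.

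Mfap4 (ENSMUSG00000042436, chr11:61485431-61488900, plus strand) encodes a secreted protein that binds tropoelastin and fibrillin. Its EV libraries held 6.97, 11.1 and 10.6 CPM, against 0.228, 0.392 and 1.94 in EVsub, 0, 0.333 and 0.309 in CAMTA1 and 4.96, 4.14 and 2.96 in TFE3. TAZ-CAMTA1 libraries held 15.2, 12.5 and 9.10 CPM, YAP-TFE3 libraries 12.7, 7.80 and 7.18 and TAZ4SA libraries 7.14, 18.0 and 12.6. YAP5SA had 0.513, 1.47 and 1.08 CPM. The 3 groups with the lowest levels were YAP5SA and both sub-confluent groups, and none of their libraries reached the lowest library of EV, TFE3, TAZ4SA or the fusion proteins.

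Mfap4 fell with YAP5SA (log2 fold change -3.21 ± 0.53, adjusted p = 1.38e-05) and was lower in EVsub than in EV (log2 fold change -3.48 ± 0.53, adjusted p = 8.9e-05, or -4.88 without EVsub replicate 3). With TFE3 all libraries were below EV, but the log2 fold change of -1.25 did not pass (adjusted p = 0.152). It passed without the filter on low counts (-1.25, adjusted p = 0.00549) and in the fit of only these 2 groups (-1.24, adjusted p = 0.0103). The intervals with TAZ-CAMTA1 (-0.54 to 1.26), YAP-TFE3 (-0.96 to 0.86) and TAZ4SA (-0.52 to 1.30) included 0. Mfap4 shares 89 bases of exon with Mapk7 on the opposite strand, which had up to 1567 counts in a library, and the handling of strand in counting is not given in the sources used here.

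The promoters of 3 fibulin genes are shown because these genes were called with different sets of proteins, Fbln1 with TAZ-CAMTA1 and TAZ4SA, Fbln5 with all 5 proteins compared with EV and in both directions, and Efemp1 with 4 of them in 1 direction. Each line is the 250 bases before a transcription start in RefSeq on GRCm38.p6, read 5′ to 3′ on the strand of the gene, and capitals mark the motifs found on either strand. The windows are chr15:85205699-85205948 on the plus strand for Fbln1 (1 of 2 starts in the table), chr12:101819120-101819369 on the minus strand for Fbln5 (1 of 2 starts), and chr11:28852955-28853204 on the plus strand for Efemp1. The bases after the start were found in a GENCODE transcript of the gene for Fbln1 and Efemp1, but for neither start of Fbln5.
Fbln1: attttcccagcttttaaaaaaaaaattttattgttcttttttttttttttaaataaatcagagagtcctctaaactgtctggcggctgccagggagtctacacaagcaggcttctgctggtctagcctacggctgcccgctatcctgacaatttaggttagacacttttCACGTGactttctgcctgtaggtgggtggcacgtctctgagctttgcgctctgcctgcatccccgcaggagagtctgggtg
Fbln5: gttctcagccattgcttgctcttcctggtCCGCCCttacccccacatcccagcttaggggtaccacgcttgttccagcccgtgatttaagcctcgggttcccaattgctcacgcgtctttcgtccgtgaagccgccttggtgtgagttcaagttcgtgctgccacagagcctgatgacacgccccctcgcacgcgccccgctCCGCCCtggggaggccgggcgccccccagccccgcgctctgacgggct
Efemp1: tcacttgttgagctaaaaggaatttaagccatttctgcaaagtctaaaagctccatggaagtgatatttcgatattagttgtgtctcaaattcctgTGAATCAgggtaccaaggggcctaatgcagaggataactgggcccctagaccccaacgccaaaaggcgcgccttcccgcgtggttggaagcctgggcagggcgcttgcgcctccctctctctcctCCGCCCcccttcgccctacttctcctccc

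The motifs searched on both strands were GGAATG, the core of the site that TEAD factors bind, CACGTG, an E-box that TFE3 and its relatives bind, TGANTCA for AP-1, the TATA box TATAAA and the GC box GGGCGG. None of these motifs overlapped another in the windows shown. Of the 10 genes, 6 had a start in the table (Fbn1, Fbln1, Fbln2, Fbln5, Efemp1 and Efemp2). GGAATG was in none of the 6 windows and in 12.64% of all 32851 promoters, and TATAAA was in none and in 12.37%. The E-box was found in Fbln1, 81 bases before the start (6.02% of all promoters), and the AP-1 motif in Efemp1, 154 bases before the start (6.75%). The GC box, which 32.74% of promoters hold, was in 5 of the 6, all but Fbln1. A match is only a match of letters in this window.

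Fbln1 (ENSMUSG00000006369, chr15:85205949-85286535, plus strand) encodes fibulin 1, which binds fibronectin, laminin and the elastic core. Its level was low in all groups, with 0.253, 1.81 and 0.487 CPM in EV, 0.273, 0.641 and 0.845 in EVsub, 0.216, 0.333 and 0.649 in CAMTA1 and 0.715, 0.633 and 0.628 in TFE3. The TAZ-CAMTA1 libraries held 5.91, 8.38 and 8.86 CPM and the YAP-TFE3 libraries 0.702, 0.703 and 0.467. TAZ4SA libraries held 1.59, 4.05 and 1.14 CPM and YAP5SA libraries 0.565, 0.834 and 0.570. The 3 TAZ-CAMTA1 libraries were above all others, TAZ4SA overlapped EV, and EV replicate 2 and TAZ4SA replicate 2 stood above the rest of their groups.

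Fbln1 rose 9.20-fold with TAZ-CAMTA1 (log2 fold change 3.20 ± 0.49, adjusted p = 4.93e-05), or by 4.37 on the log2 scale without EV replicate 2. The rise with TAZ4SA was smaller (log2 fold change 1.37 ± 0.52, adjusted p = 0.028) and depended on single libraries. It was 2.53 without EV replicate 2 and was lost without EV replicate 1 (0.92, adjusted p = 0.141), EV replicate 3 (1.09, adjusted p = 0.115) or TAZ4SA replicate 2 (0.70, adjusted p = 0.267), and also with only these 2 groups in the fit (adjusted p = 0.169) and with library totals (adjusted p = 0.0546). With YAP-TFE3 the log2 fold change was -0.41 (interval -1.62 to 0.80), and it was 0.76 without EV replicate 2, neither passing.

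Fbln2 (ENSMUSG00000064080, chr6:91212455-91272540, plus strand) encodes fibulin 2, a long fibulin found where fibrillin and elastin meet. It was abundant in all libraries, with 1651, 1663 and 1924 CPM in EV, 1094, 2451 and 1259.5 in EVsub, 1163, 1040.4 and 1033 in CAMTA1 and 1547, 1621 and 1301 in TFE3. TAZ-CAMTA1 libraries held 1371, 1073 and 1134 CPM and YAP-TFE3 libraries 2163, 1570.1 and 1595. TAZ4SA libraries held 868, 1264 and 1177 CPM and YAP5SA libraries 1084, 974 and 1089. All libraries of TAZ-CAMTA1, TAZ4SA and YAP5SA were below EV, YAP-TFE3 overlapped it, and EVsub replicate 2 was the highest library of the series.

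Fbln2 fell with TAZ4SA (log2 fold change -0.66 ± 0.22, adjusted p = 0.012) and with YAP5SA (log2 fold change -0.73 ± 0.22, adjusted p = 0.00449). The TAZ4SA call was lost without TAZ4SA replicate 1 (-0.52, adjusted p = 0.0737). With TAZ-CAMTA1 the value was -0.55 (interval -1.01 to -0.09, adjusted p = 0.0736), which passed with DESeq2 (adjusted p = 0.0386). Without EVsub replicate 2 Fbln2 was called lower in EVsub than in EV (-0.57, adjusted p = 0.0291), where all libraries gave -0.12 and no call, and without EVsub replicate 1 it was called lower in CAMTA1 than in EVsub (-0.78, adjusted p = 0.0375).

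Fbln5 (ENSMUSG00000021186, chr12:101746565-101819055, minus strand) encodes fibulin 5, which tethers elastin to microfibrils and to integrins of the cell. The EV libraries held 262, 289 and 271 CPM, EVsub 331, 378 and 401, CAMTA1 335, 411 and 410.0 and TFE3 148, 131 and 130.1. With TAZ-CAMTA1 the values were 508, 462 and 407 CPM and with YAP-TFE3 446, 327 and 386. TAZ4SA had 118, 207 and 182 CPM and YAP5SA 364, 367 and 385. The libraries fell into 3 levels, with TFE3 and TAZ4SA below every EV library and the 5 remaining groups above every EV library.

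Fbln5 rose with TAZ-CAMTA1 (log2 fold change 0.74 ± 0.15, adjusted p = 0.00131) and, less firmly, with YAP-TFE3 (log2 fold change 0.50 ± 0.15, adjusted p = 0.0307). The latter call was lost without EV replicate 1, EV replicate 3, YAP-TFE3 replicate 1 or YAP-TFE3 replicate 3, with log2 fold changes of 0.35 to 0.50 and adjusted p from 0.0587 to 0.257. Fbln5 fell with TAZ4SA (log2 fold change -0.70 ± 0.16, adjusted p = 0.000574) and with TFE3 (log2 fold change -1.01 ± 0.16, adjusted p = 0.000521). With YAP5SA it was called higher (log2 fold change 0.44 ± 0.15, adjusted p = 0.0145), but with library totals in place of TMM the value was 0.07 (adjusted p = 0.696). The higher level in EVsub than in EV (log2 fold change 0.43 ± 0.15, adjusted p = 0.0475) was lost with each EV library left out in turn, without EVsub replicate 2 or 3, and with DESeq2 size factors, with adjusted p from 0.061 to 0.137.

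Efemp1 (ENSMUSG00000020467, chr11:28853204-28926743, plus strand) encodes fibulin 3, a short fibulin of fascia and eye. Its libraries held 762, 909 and 755 CPM in EV, 1329, 825 and 1195 in EVsub, 1286, 1276 and 1329 in CAMTA1 and 625, 538 and 583 in TFE3. They held 1445, 1719 and 1814 CPM in TAZ-CAMTA1 and 1768, 1326 and 1448 in YAP-TFE3. TAZ4SA had 1119, 1294 and 1072 CPM and YAP5SA 1229, 1389 and 1146. Every library of the fusion proteins, TAZ4SA, YAP5SA and CAMTA1 was above every confluent EV library, and every TFE3 library was below.

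Efemp1 rose 2.05-fold with TAZ-CAMTA1 (log2 fold change 1.04 ± 0.15, adjusted p = 3.61e-05) and rose 1.87-fold with YAP-TFE3 (log2 fold change 0.90 ± 0.15, adjusted p = 0.000218). It rose less with TAZ4SA (log2 fold change 0.52 ± 0.15, adjusted p = 0.00573) and YAP5SA (log2 fold change 0.63 ± 0.15, adjusted p = 0.000855), and with library totals in place of TMM neither of these passed (0.33, adjusted p = 0.0607, and 0.26, adjusted p = 0.125). With TFE3 the log2 fold change of -0.47 had an adjusted p of 0.102. In EVsub Efemp1 was higher than in EV (log2 fold change 0.46 ± 0.15, adjusted p = 0.032), a call lost without EV replicate 1 or 3 or EVsub replicate 1 or 3, with adjusted p from 0.0808 to 0.189.

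Efemp2 (ENSMUSG00000024909, chr19:5473954-5482517, plus strand) encodes fibulin 4, which brings lysyl oxidase to tropoelastin for cross-linking. It was measured at 196, 208 and 202 CPM in EV, 199, 275 and 200.2 in EVsub, 174, 220.1 and 201 in CAMTA1 and 181, 201 and 187 in TFE3. TAZ-CAMTA1 libraries held 257, 239.9 and 209 CPM and YAP-TFE3 libraries 231, 193 and 241. TAZ4SA libraries held 120.1, 156 and 145 CPM and YAP5SA libraries 220.0, 212 and 228. TAZ4SA was the only group whose libraries were all below those of every other group. Efemp2 fell with TAZ4SA (log2 fold change -0.53 ± 0.13, adjusted p = 0.00135), and no other comparison with a vector control passed. It shares 173 bases of exon with Mus81 on the opposite strand, which had up to 820 counts in a library.

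**Figure D3:**
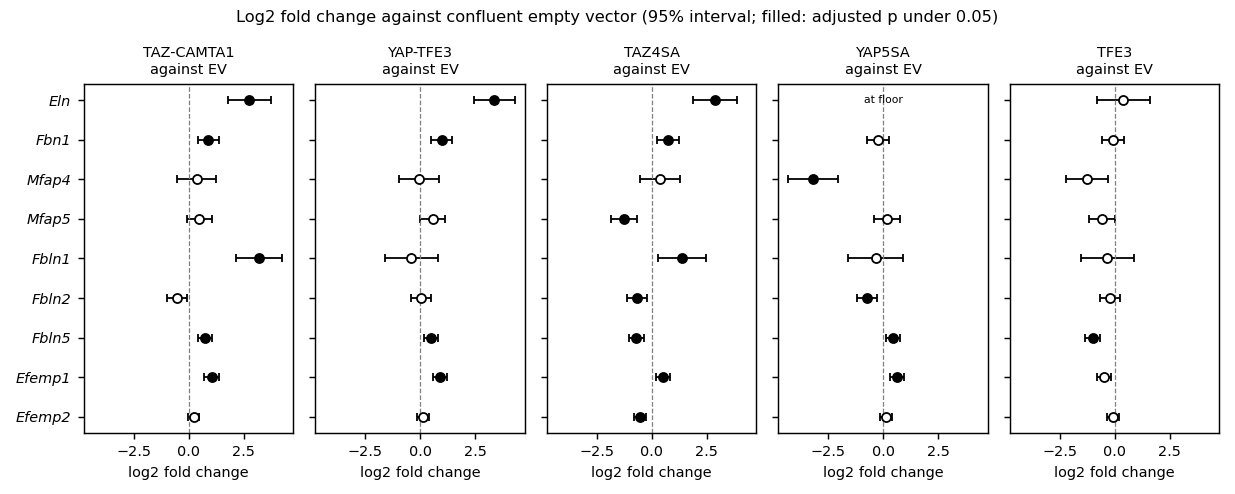
Log2 fold change against EV (horizontal axis) for the 9 tested genes and 5 expressed proteins, with 95% intervals from the standard error on 16 residual degrees of freedom; filled points have an adjusted p under 0.05, and Eln with YAP5SA is marked as at the floor. Filled points lie to the right for both fusion proteins and on both sides for TAZ4SA and YAP5SA, 1 filled point (Fbln5) lies to the left for TFE3.

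The fusion proteins were then compared directly with the full-length proteins. TAZ-CAMTA1 had higher Fbln1, Fbln5, Efemp1, Efemp2 and Mfap5 than TAZ4SA, 5 of the 9 genes called and all higher, where 54.7% of all tested genes were called and 26.6% were higher. Fbln5 differed 2.72-fold (log2 fold change 1.44 ± 0.16, adjusted p = 1.99e-07) and Mfap5 3.36-fold (log2 fold change 1.75 ± 0.28, adjusted p = 2.65e-05), with no overlap of libraries. Efemp2 (log2 fold change 0.75 ± 0.13, adjusted p = 5.5e-05) and Efemp1 (log2 fold change 0.51 ± 0.15, adjusted p = 0.00713) differed less. For Fbln1 the log2 difference was 1.83 (adjusted p = 0.00164), or 2.50 without TAZ4SA replicate 2. Eln, Fbn1, Fbln2 and Mfap4 were not called, with intervals of -0.87 to 0.64, -0.32 to 0.66, -0.34 to 0.57 and -0.93 to 0.87.

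YAP-TFE3 had higher Eln, Fbn1, Fbln2 and Mfap4 than YAP5SA, 4 of 9 called and all higher, beside 70.9% of all genes called and 36.4% higher. Eln was at least 12.6-fold higher (adjusted p = 2.95e-08), since YAP5SA had no Eln read. Mfap4 was 8.95-fold higher (log2 fold change 3.16 ± 0.53, adjusted p = 1.72e-05) and Fbn1 2.29-fold higher (log2 fold change 1.19 ± 0.23, adjusted p = 0.000104). Fbln2 differed by 0.76 on the log2 scale (adjusted p = 0.00352). With library totals in place of TMM the median of all genes moved by 0.36 in this comparison and 8 of the 9 genes were called, Fbln5 (0.41), Efemp1 (0.63), Efemp2 (0.37) and Mfap5 (0.75) in addition. In that setting 10452 of all 14361 genes were called, 67.6% of them higher.

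Between the hyperactive co-activators, TAZ4SA and YAP5SA, 7 of the 9 genes were called, 4 higher and 3 lower, beside 42.4% of all genes, 22.8% higher and 19.6% lower. Eln was at least 8.77-fold higher in TAZ4SA (adjusted p = 2.09e-06), Mfap4 12.2-fold higher (log2 fold change 3.60 ± 0.53, adjusted p = 2.35e-05) and Fbn1 1.94-fold higher (log2 fold change 0.95 ± 0.23, adjusted p = 0.00256). Fbln1 was higher by 1.70 (adjusted p = 0.016), a call lost without TAZ4SA replicate 2 (1.03, adjusted p = 0.121) or YAP5SA replicate 1 or 3 (adjusted p = 0.0582 and 0.0503). In the other direction, Mfap5 (log2 fold change -1.44 ± 0.28, adjusted p = 0.000367), Fbln5 (log2 fold change -1.14 ± 0.16, adjusted p = 1e-05) and Efemp2 (log2 fold change -0.65 ± 0.13, adjusted p = 0.000414) were lower in TAZ4SA. Elastin, fibrillin 1 and Mfap4 on one side and the short fibulins Fbln5 and Efemp2 with Mfap5 on the other thus differed in opposite directions between these cells, with TMM and with library totals.

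The 2 fusion proteins differed in 1 of the 9 genes, higher with TAZ-CAMTA1, beside 11.6% of all genes called and 5.32% higher. Fbln1 was 12.2-fold higher with TAZ-CAMTA1 than with YAP-TFE3 (log2 fold change 3.61 ± 0.50, adjusted p = 3.65e-05). Eln (log2 difference -0.62, interval -1.34 to 0.10) and Fbln2 (-0.57, interval -1.03 to -0.12) were lower with TAZ-CAMTA1 in all libraries but did not pass. The intervals for Efemp1 (-0.19 to 0.45), Fbln5 (-0.08 to 0.57) and Efemp2 (-0.19 to 0.36) were narrower than those for Mfap4 (-0.49 to 1.31) and Fbn1 (-0.56 to 0.42).

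Against full-length TFE3, YAP-TFE3 had 5 of the 9 genes called, all higher, beside 22.9% of all genes called and 14.3% higher. Eln was 7.95-fold higher (log2 fold change 2.99 ± 0.42, adjusted p = 2.07e-05, or 3.69 without TFE3 replicate 2), Fbln5 2.83-fold (log2 fold change 1.5 ± 0.16, adjusted p = 3.83e-07) and Efemp1 2.60-fold (log2 fold change 1.38 ± 0.16, adjusted p = 9.71e-07). Mfap5 (log2 fold change 1.14 ± 0.28, adjusted p = 0.00418) and Fbn1 (log2 fold change 1.06 ± 0.23, adjusted p = 0.00173) were also higher. For Fbln5 the direct difference spanned a rise against EV with the fusion protein and a fall with TFE3 alone. TAZ-CAMTA1 was not compared with CAMTA1, which was collected below confluence.

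**Figure D4:**
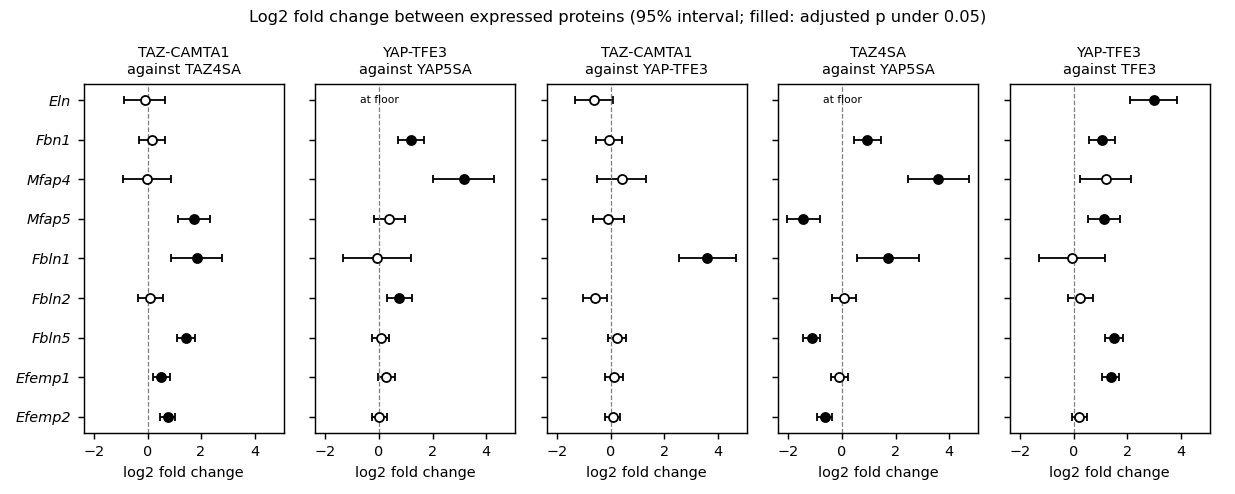
Log2 fold change between expressed proteins (horizontal axis, first against second) for the 9 tested genes, with 95% intervals; filled points have an adjusted p under 0.05, and Eln is marked as at the floor where 1 group is YAP5SA. Filled points lie to the right in 4 of the 5 panels and on both sides for TAZ4SA against YAP5SA.

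Between the sub-confluent groups, CAMTA1 and EVsub, no member was called. Mfap4 had a log2 fold change of -1.99 (interval -3.65 to -0.33, adjusted p = 0.187) at levels below 2 CPM in each library, and Mfap5 one of -0.59 (interval -1.17 to 0.00). The intervals for Fbln5 (-0.27 to 0.38), Efemp1 (-0.11 to 0.54) and Efemp2 (-0.45 to 0.09) were narrow and included 0. A p that misses the threshold does not show that these levels were alike.

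The genes that assemble, bind, cross-link or degrade elastic fibres were read alongside, as a list of 31 genes from general knowledge of which 23 were tested. With TAZ-CAMTA1 7 of them were higher and 3 lower (12.5% and 8.98% of all genes), and with YAP-TFE3 8 were higher and 3 lower (10.6% and 4.74%). With TAZ4SA 4 were higher and 12 lower (31.1% and 26.4% of all genes), and with YAP5SA 5 were higher and 15 lower (36.3% and 34.9%). TFE3 gave 1 higher (Adamtsl5, 0.43, adjusted p = 0.0265; 2.36% of all genes were higher) and 0 lower. CAMTA1 against EVsub gave 1 higher and 2 lower (1.29% and 0.891% of all genes), and EVsub against EV 3 higher and 5 lower (12.5% and 9.59%). The median log2 fold change of the list was -0.04 with TAZ-CAMTA1, 0.31 with YAP-TFE3, -0.70 with TAZ4SA and -0.87 with YAP5SA.

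Among the genes of microfibril binding, 4 of 10 were higher and 0 lower with TAZ-CAMTA1 (12.5% and 8.98% of all genes), and 5 higher and 0 lower with YAP-TFE3 (10.6% and 4.74%). With TAZ4SA 2 were higher and 4 lower (31.1% and 26.4%), and with YAP5SA 3 were higher and 7 lower (36.3% and 34.9%). In EVsub against EV 2 were higher and 0 lower (12.5% and 9.59%). Ltbp1, a latent TGF-beta binding protein, rose with YAP-TFE3 (log2 fold change 1.10 ± 0.18, adjusted p = 0.000161), and its log2 fold change was 0.63 with TAZ-CAMTA1, 1.64 with TAZ4SA and 1.59 with YAP5SA, all called. Its mean level was 41.8 CPM in EV, 64.7 in TAZ-CAMTA1, 89.6 in YAP-TFE3, 130 in TAZ4SA and 126 in YAP5SA. Below confluence the mean was 147 CPM in EVsub, with the vector alone, and 178 in CAMTA1. The EVsub libraries (181, 156 and 105 CPM) overlapped those of TAZ4SA (152, 133 and 106) and YAP5SA (111, 130 and 136). Adamtsl4, an ADAMTS-like protein that binds fibrillin 1, rose with TAZ-CAMTA1 (log2 fold change 1.42 ± 0.20, adjusted p = 2.64e-05) and fell with YAP5SA (-0.87, adjusted p = 0.000973). Emilin1, a glycoprotein at the elastin-microfibril border, fell with YAP5SA (log2 fold change -2.67 ± 0.19, adjusted p = 6.45e-11) and TAZ4SA (-1.14, adjusted p = 1.32e-05) and rose with YAP-TFE3 (0.53, adjusted p = 0.0418).

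Loxl4, a lysyl oxidase of the enzymes that cross-link elastin and collagen, was the cross-linking gene with the largest change. Its mean level was 7.31 CPM in EV, 58.3 with TAZ-CAMTA1, 22.1 with YAP-TFE3, 23.4 with TAZ4SA and 29.7 with YAP5SA. Below confluence it was 21.0 CPM in EVsub, with the vector alone, and 40.9 in CAMTA1. The part of confluence in the changes against EV was not tested. It rose with TAZ-CAMTA1 (log2 fold change 3.00 ± 0.24, adjusted p = 1.5e-08) and YAP-TFE3 (log2 fold change 1.60 ± 0.24, adjusted p = 4.54e-05), and also with TAZ4SA (1.68) and YAP5SA (2.02). Of the other cross-linking genes, Lox itself was not called with either fusion protein (log2 fold changes 0.22 and 0.60) and fell with YAP5SA (-0.82, adjusted p = 0.00363). Loxl1 fell with TAZ4SA (-1.44) and YAP5SA (-1.12). Loxl3 rose with TAZ-CAMTA1 (0.97, adjusted p = 0.000362), was not called with YAP-TFE3 (0.37), and fell with TAZ4SA (-0.81) and YAP5SA (-0.68).

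All 4 tested elastin-degrading proteases were lower with TAZ4SA (26.4% of all genes were) and 3 of 4 with YAP5SA (34.9%). With the vector alone, 3 of 4 were also lower in EVsub than in EV (9.59%), namely Mmp2 (-2.24), Ctsk (-1.46) and Ctsl (-0.73). The gelatinase Mmp9 had a mean of 19.4 CPM in EV, 1.09 with TAZ4SA and 0.266 with YAP5SA, and the log2 fold changes were -4.22 (adjusted p = 4.1e-06) and -6.14 (adjusted p = 1.37e-07). Cathepsin K (Ctsk) fell from 36.9 CPM in EV to 5.6 with TAZ4SA (log2 fold change -2.72 ± 0.20, adjusted p = 4.98e-10) and 3.71 with YAP5SA (log2 fold change -3.31 ± 0.21, adjusted p = 1.45e-11). Mmp2, the most abundant of them at 4241 CPM in EV, fell with YAP5SA (log2 fold change -2.40 ± 0.25, adjusted p = 2.79e-08) and TAZ4SA (log2 fold change -2.11 ± 0.25, adjusted p = 3.97e-07), and had smaller falls with TAZ-CAMTA1 (-0.71, adjusted p = 0.0407) and YAP-TFE3 (-0.87, adjusted p = 0.0158). Of the ligands that microfibrils hold, 2 of 3 were lower with each of TAZ-CAMTA1, YAP-TFE3, TAZ4SA and YAP5SA (8.98%, 4.74%, 26.4% and 34.9% of all genes), and 2 of 3 also in EVsub against EV (9.59%). Tgfb3 fell with YAP-TFE3 (log2 fold change -1.0 ± 0.18, adjusted p = 0.00044) and with the other 3 proteins, and Tgfb1 fell with TAZ-CAMTA1 (log2 fold change -1.13 ± 0.24, adjusted p = 0.00142) and with YAP5SA.

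**Figure D5:**
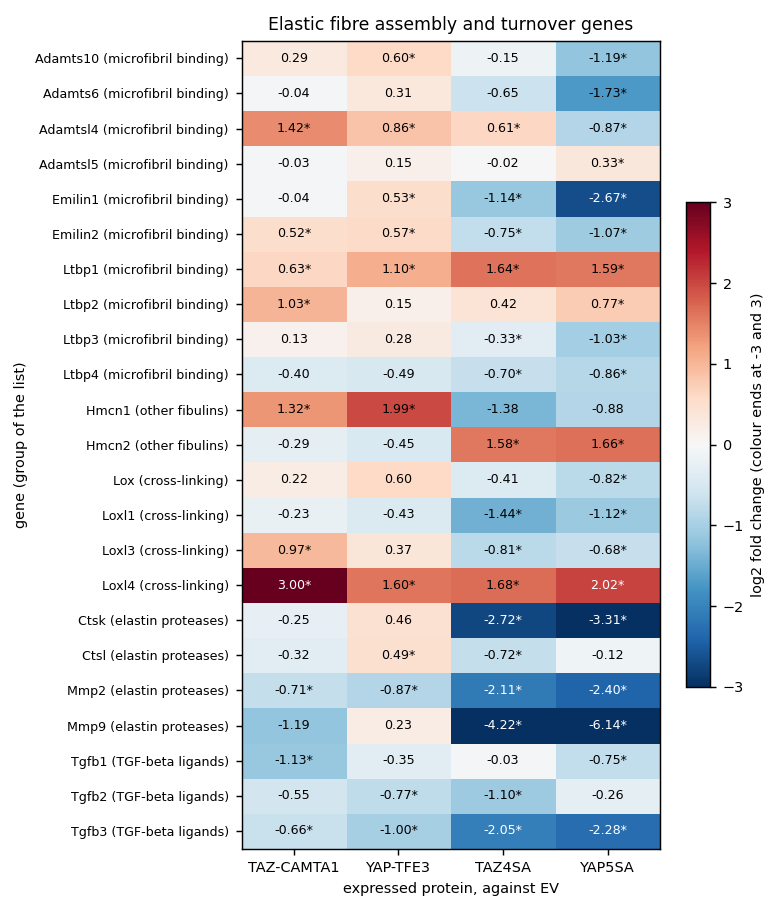
Log2 fold change against EV for the 23 tested genes that assemble, bind, cross-link or degrade elastic fibres, in rows by group of the list and columns by expressed protein; red is higher, blue is lower, and an asterisk marks an adjusted p under 0.05. The columns of TAZ4SA and YAP5SA hold 12 and 15 called falls, those of TAZ-CAMTA1 and YAP-TFE3 3 each.

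The 9 genes did not move as 1 block across the 24 libraries. On the log2 CPM scale the highest Pearson correlations among them were 0.78 for Eln with Mfap4, 0.728 for Eln with Fbn1, 0.727 for Fbln5 with Efemp2 and 0.721 for Fbln5 with Efemp1, and Fbln2 with Efemp1 had -0.369. These describe libraries that share groups, scaling and depth. Of the 11356 genes searched outside the list, each averaging 50 counts or more, the likest to Eln were Deptor (0.894) and Tfdp2 (0.893), and the likest to Fbn1 were Ero1l (0.883) and Plekha2 (0.882). Mfap4 was most like Lum (0.948), which encodes the collagen-binding proteoglycan lumican, and Clec3b (0.93), and Mfap5 most like Man2b2 (0.918) and Lamb1 (0.878), a laminin chain. For the long fibulins the likest were Maml1 (0.821) and Prx (0.792) to Fbln1, and Pomk (0.828) and Selenon (0.826) to Fbln2. Among the short fibulins, Fbln5 was most like Parva (0.921) and Cavin1 (0.877), Efemp1 most like Plpp1 (0.935) and Sod3 (0.909), the extracellular superoxide dismutase, and Efemp2 most like Pigt (0.872) and Fbxl15 (0.852).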

How the data were processed

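RNA-Seq was performed by the authors on NIH 3T3 cells stably transduced in triplicate, with stranded libraries of polyadenylated RNA and Hisat2 alignment to mm10. The submitters' processing notes also name bcl2fastq. The authors deposited raw counts of reads per Ensembl gene, without normalization. Their methods also name Salmon with tximport for gene-level counts; whether the deposited counts came from this or from the alignments, and with which strand setting, is not given in the sources used here. The libraries held 16471181 to 30132586 counts. No molecular identifiers were used, so a count is not 1 independent molecule.

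Groups and replicate numbers came from the sample titles. Symbols, coordinates and exon lengths were taken from GENCODE M21, and promoters from RefSeq on GRCm38.p6. Genes averaging 5 counts or more (14361 of 39017) were tested in one fit of all 24 libraries by the quasi-likelihood test of edgeR 4.0.16 (R 4.3.3) after TMM scaling, with a coefficient per group, 16 residual degrees of freedom and Benjamini-Hochberg adjustment over all tested genes, and called at an adjusted p under 0.05. Log2 CPM for correlations used a prior count of 2. A fold against a group with at most 3 counts in each library was computed against that floor, with the mean over its libraries, and is a lower bound. The model was run on simulated counts in which 200 of 14361 genes were changed in the TAZ-CAMTA1 group and no other group differed. At log2 changes of 1 and 2 it recovered 159 and 193 of the 200, with 6 and 7 false calls. Each gene was simulated with the spread of the trend for its level. The run therefore held no gene more variable than that trend and no outlying library, unlike calls here that rest on single libraries. Far fewer genes changed there than were called in these data, so the run says nothing of the choice of scaling. P-values measure the spread between the libraries of these pooled lines.

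The 10 genes, the other lists and the motifs were chosen with earlier results of these data known. Named beside the members were the 3 genes of the assembly list with the largest absolute change against EV for each of 4 proteins, called and averaging 50 counts or more, and the 2 genes most correlated with each member. Adamtsl5, Lox, Loxl1, Loxl3, the values of single cell type markers and the further values given for named genes were added after their values were seen. Alternatives were DESeq2 1.42.0, DESeq2 size factors, library totals, no filter, a limit of 50 counts on the mean, only the 2 groups compared, the replicate number as a block, a log2 fold change of 1 or more in size, and each library left out in turn.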

Additional observations from a re-analysis of the deposited data

Results flagged for a closer look

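These values stand out because the effects of a pair of proteins against the same control differed by the test of the difference itself, with calls of opposite direction against EV. Fbln5 rose with TAZ-CAMTA1 and fell with TAZ4SA, a log2 difference of 1.44 (adjusted p = 1.99e-07, edgeR), higher in 3 of 3 libraries. Fbln5 was lower in TAZ4SA than in YAP5SA by a log2 value of -1.14 (adjusted p = 1e-05), and the rise with YAP5SA against EV was not called with library totals. Fbln5 was higher with YAP-TFE3 than with TFE3 by 1.5 (adjusted p = 3.83e-07), where the call with YAP-TFE3 against EV was lost without any one of 4 libraries named in the results. Eln was at least 12.6-fold higher with YAP-TFE3 than with YAP5SA, and at least 8.77-fold higher with TAZ4SA than with YAP5SA, each in 3 of 3 libraries. The fall of Eln with YAP5SA against EV is weak, as its bound of 1.15-fold rests on EV replicate 1.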

How the results depend on the processing

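Of 108 results for the 9 genes in 12 comparisons, 49 were called. Leaving aside the limit on fold size, 36 of these stayed called under each alternative that gave a value for the gene, and 28 of the 49 had a log2 fold change of 1 or more in size. Over 1380 values under the alternatives other than that limit, 38 lost a call, 24 gained one and 42 changed sign. The cause of these changes was not tested unless the setting itself gives it (fewer genes or libraries, or a higher limit).

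Counts of called members moved by over 1.5 times as follows. With a required log2 fold change of 1 or more in size, TAZ-CAMTA1 against EV went from 5 to 3, TAZ4SA from 8 to 3, YAP-TFE3 from 4 to 1, YAP5SA from 5 to 2, EVsub from 4 to 1, and TAZ-CAMTA1 against TAZ4SA from 5 to 3. At that limit the assembly list went from 10 to 5, 16 to 10, 11 to 4, 20 to 13 and 1 to 0 for TAZ-CAMTA1, TAZ4SA, YAP-TFE3, YAP5SA and TFE3. The shares of all genes at this fold limit are not given here. A limit of 50 counts on the mean left 3 for TAZ-CAMTA1 against EV and 0 between the fusion proteins, as it removes Eln and Fbln1. Of all 11363 genes above that limit, 2683 and 1410 were called in these comparisons. Library totals gave 5 for TAZ4SA against EV and 8 for YAP-TFE3 against YAP5SA, beside 8171 and 10452 of all 14361 genes. For TFE3 against EV, DESeq2 and no filter gave 2 members each and the fit of 2 groups 4, and the assembly list had 4 without the filter and 7 in that fit. Over all genes DESeq2 called 711 of 14361, no filter 642 of 24737 and that fit 1512 of 14361. CAMTA1 against EVsub had 2 members without the filter, and its assembly list, 3 in the full fit, had 7 without the filter and 0 in the fit of 2 groups. Over all genes 674 of 24737 were called without the filter and 22 of 14361 in that fit. EVsub against EV had 2 in the fit of 2 groups, and the fusion proteins differed in 2 genes without the filter and in 2 in that fit. Over all genes EVsub against EV had 1683 of 14361 called in that fit. Between the fusion proteins 1977 of 24737 were called without the filter and 2572 of 14361 in that fit. The genes behind these counts were as follows. For TFE3 the gains were Efemp1 with DESeq2 (adjusted p = 0.0494), Mfap4 without the filter, and Efemp1 (adjusted p = 0.0162), Mfap4 and Mfap5 (-0.56, adjusted p = 0.0266) in the fit of 2 groups. Without the filter Fbln2 (adjusted p = 0.0441) and Mfap4 (adjusted p = 0.0166) were called for CAMTA1, and in the fit of 2 groups Efemp1 (adjusted p = 0.139) and Mfap5 (adjusted p = 0.0987) were lost for EVsub. Fbln2 was gained between the fusion proteins in both settings (adjusted p = 0.02 and 0.0346) and for TAZ-CAMTA1 against EV (adjusted p = 0.0209 and 0.00929). Mfap5 was also called in the fit of 2 groups for TAZ-CAMTA1 against EV (0.48, adjusted p = 0.024) and YAP-TFE3 against YAP5SA (0.39, adjusted p = 0.0162) and without the filter for YAP-TFE3 against EV (0.57, adjusted p = 0.0321), and Mfap4 in both settings for YAP-TFE3 against TFE3 (adjusted p = 0.00164 without the filter and 0.00452 in the fit). Leaving out libraries in turn gave 2 to 4 for YAP-TFE3 against EV, 0 to 1 for CAMTA1 against EVsub and 1 to 3 for EVsub against EV. The assembly list then had 0 to 1 for TFE3 and 1 to 7 for CAMTA1. Shares of all genes with a library left out are not given here.

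All sign changes were of differences called in neither setting. With library totals they were Eln (0.05) and Mfap4 (0.16) for TAZ-CAMTA1 against TAZ4SA, Fbln1 (0.28) for YAP-TFE3 against YAP5SA, Efemp1 (0.08) for TAZ4SA against YAP5SA, and Efemp2 (-0.25) and Mfap5 (-0.21) for YAP5SA against EV. Mfap4 for TAZ-CAMTA1 against TAZ4SA was also 0.01 without the filter. With libraries left out in turn, Eln ran from -0.30 to 1.11 for TFE3 against EV and from -0.25 to 0.04 for TAZ-CAMTA1 against TAZ4SA. Fbn1 ran from -0.19 to 0.04 for TFE3, -0.11 to 0.31 for EVsub, -0.01 to 0.42 for CAMTA1 and -0.30 to 0.19 between the fusion proteins. Fbln1 against EV ran from -0.86 to 0.76 for YAP-TFE3, -0.78 to 0.84 for YAP5SA, -0.79 to 0.83 for TFE3 and -0.94 to 0.68 for EVsub, in each case positive without EV replicate 2. Fbln1 with YAP-TFE3 ran from -0.19 to 0.14 against YAP5SA and -0.18 to 0.10 against TFE3. Fbln2 ran from -0.17 to 0.11 for YAP-TFE3, -0.57 to 0.09 for EVsub, -0.03 to 0.22 for TAZ-CAMTA1 against TAZ4SA and -0.04 to 0.22 for TAZ4SA against YAP5SA. Fbln5 ran from -0.02 to 0.15 for CAMTA1 and -0.04 to 0.16 for YAP-TFE3 against YAP5SA. Efemp2 ran from -0.02 to 0.23 for EVsub, -0.05 to 0.10 for YAP-TFE3 against YAP5SA and -0.01 to 0.16 between the fusion proteins. Mfap4 ran from -0.38 to 0.10 for YAP-TFE3 and -0.31 to 0.31 for TAZ-CAMTA1 against TAZ4SA, and Mfap5 from -0.17 to 0.05 between the fusion proteins.

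Same-numbered libraries were taken to deviate together where all 3 correlations of their deviations were over 0.1, which no comparison met. The highest set was that of CAMTA1 and EVsub, 0.252 and 0.41 for replicates 1 and 3 and -0.00246 for replicate 2. A pairing of these 2 groups alone was not tested. With the replicate number as a block, Fbln5 in EVsub against EV was not called (0.43, adjusted p = 0.0596), Mfap4 for TAZ-CAMTA1 against TAZ4SA was 0.02, and no other member call changed.

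With library totals in place of TMM the median log2 fold change of all tested genes moved by -0.17 for TAZ4SA and -0.37 for YAP5SA against EV, and by 0.17, 0.36 and 0.20 for TAZ-CAMTA1 against TAZ4SA, YAP-TFE3 against YAP5SA and TAZ4SA against YAP5SA. The share of higher genes among all called moved from 54.1% to 41.9%, 51.0% to 34.5%, 48.5% to 62.0%, 51.4% to 67.6% and 53.8% to 72.6% in these comparisons. Over all genes, calls moved by over 1.5 times for TFE3 against EV (485, or 1512 in the fit of 2 groups), CAMTA1 against EVsub (313, or 636 with DESeq2, 674 without the filter and 22 in the fit of 2 groups), EVsub against EV (3173, or 1683 in that fit), TAZ4SA against YAP5SA (6087, or 2910), TAZ-CAMTA1 against YAP-TFE3 (1671, or 2572) and YAP-TFE3 against TFE3 (3288, or 4952).

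Depth limits Eln and Fbln1, with few counts in the control libraries, and Fbn2, which was near 0 throughout.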

Other observations

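The summed level of the 10 genes was 4046, 3957 and 4083 CPM in the TAZ-CAMTA1 libraries and 5233, 3882 and 4076 in YAP-TFE3, against 3118, 3429 and 3457 in EV. TAZ4SA libraries held 2505, 3170.3 and 2874 CPM, YAP5SA libraries 3204, 3254 and 3133, and TFE3 libraries 2749.9, 2723 and 2417. Below confluence, EVsub held 3103, 4187 and 3319 CPM and CAMTA1 3116, 3149.6 and 3226. EVsub replicate 2, with the vector alone, thus lay above every TAZ-CAMTA1 library and above YAP-TFE3 replicates 2 and 3. The libraries of both fusion proteins lay above all confluent EV libraries and those of TFE3 below. As Fbln2 and Efemp1 make up most of these sums, the values mainly describe those genes.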
